A study of Mus musculus with 18 samples.

Results

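The transcriptome of L3–L5 dorsal root ganglia (DRG) was compared between mice with a tibial fracture and mice with sham surgery. Every library of these groups was used, 12 of the 18 libraries in the series. CD1 mice, an outbred strain, received sham surgery, tibial fracture, or tibial fracture with protectin DX (PDX, a lipid mediator), with 6 mice per group (3 females and 3 males) and 1 bulk RNA-seq library per mouse. The fracture mice compared here received the vehicle in place of PDX, and their ganglia were taken on day 3 after surgery. The fracture was made in the left hind limb under isoflurane anesthesia, by placing a steel pin in the canal of the tibia and then cutting the bone. The sources used here do not give the day on which sham ganglia were taken, nor whether ganglia came from the injured side alone, so neurons with and without an axon in the injured limb may be mixed in 1 library.

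The DRG holds the cell bodies of primary sensory neurons, each wrapped by satellite glia, together with Schwann cells, blood vessels, connective tissue and resident macrophages. When a peripheral axon is damaged, the cell body switches on a growth program led by transcription factors such as *Atf3* and *Sox11*, with *Sprr1a*, *Gadd45a* and *Flrt3* among its effectors and *Npy* and *Gal* among its neuropeptides. The question here was which neuronal, glial, vascular and matrix programs differed 3 days after fracture. In bulk tissue, fewer cells of a type and less RNA per cell cannot be told apart.

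The gene counts of a library summed to 69515456 to 82824942 reads, and the ranges of the 2 groups overlapped. Since each library is 1 mouse, the p-values below measure the spread between mice. Levels are given as CPM, read counts scaled by library size with TMM factors. The libraries had the makeup of sensory ganglia: the 17 pan-neuronal genes summed to 23299 to 25338 CPM in sham and 25741 to 27352 CPM in fracture mice, and the Schwann cell myelin genes *Pmp22* and *Mbp* were abundant. The 15 central nervous system genes summed to 215 to 269 CPM in sham and 222 to 250 CPM in fracture mice. Of these, *Aqp4*, an astrocyte channel, read 4.04 to 8.15 CPM over all 12 libraries. Whether some central nervous tissue was present was not tested. *Xist*, the transcript of the inactive X chromosome, read 186 to 252 CPM in females and 7.86 to 14.4 CPM in males.

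Transcripts of other tissues were also present and differed between the groups. The 23 placenta genes, 22 of which had at least 1 count in all 12 libraries including those of males, summed to 276, 591 and 897 CPM in sham mice and to 46.6, 149 and 413 CPM in fracture mice (lowest, median and highest, as in every such triple of values). Only the F3 pair crossed the group ranges, with 276 CPM in the sham mouse and 413 CPM in the fracture mouse. The values of these F3 mice are therefore given beside several results below, as the log2 ratio of Fracture F3 to Sham F3, which rests on 1 mouse each and carries no test. For a gene whose groups do not overlap, the sign of this ratio is fixed in advance, and only its size is free. Of these 23 genes 5 fell in the test described below, where 1.83% of all 20659 genes tested were lower. They were the placental lactogen and prolactin relatives *Prl3d1* (log2 fold change -2.17), *Prl2c2* (-2.15), *Prl6a1* (-1.76) and *Prl2a1* (-1.74) and the homeobox gene *Rhox5* (-1.48). Skeletal muscle genes summed to 148 to 1133 CPM in sham and 186 to 2099 CPM in fracture mice. Their ranges overlapped in females, at 307 to 1133 and 186 to 1288 CPM, but not in males, at 148 to 161 CPM in sham and 468 to 2099 CPM in fracture mice, and the median log2 fold change of the list was 0.0081 in females and 3.68 in males. Erythroid genes summed to 785 to 2249 CPM in sham and 984 to 1370 CPM in fracture mice, and neutrophil genes to 107 to 451 and 110 to 232 CPM, with overlapping ranges.

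**Figure D1:**
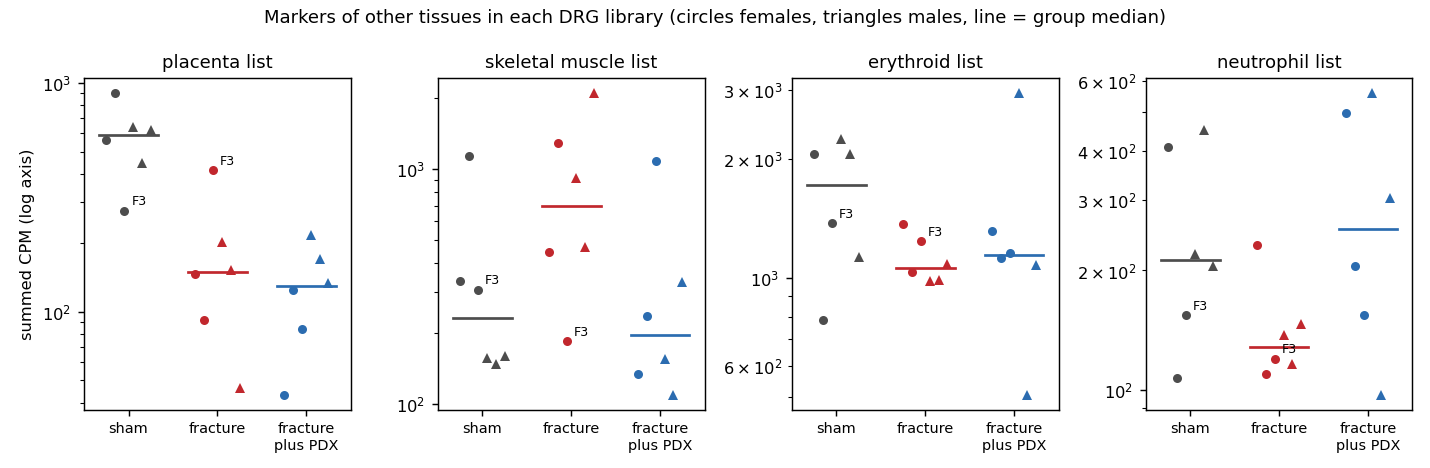
Summed CPM (log axes) of the placenta, skeletal muscle, erythroid and neutrophil marker lists in every library of sham, fracture and fracture plus PDX mice, with circles for females, triangles for males and lines for group medians. The placenta sum lies between 276 and 897 CPM in sham and between 46.6 and 413 CPM in fracture mice, and the labelled F3 mice are those in which the group order is turned.

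Of 20659 genes tested with edgeR's quasi-likelihood test, with sex as a covariate, 225 were higher in fracture mice and 378 lower (adjusted p-value below 0.05 by the Benjamini-Hochberg method), or 1.09% and 1.83% of all genes tested. The rises were mostly small and in abundant genes. The 225 higher genes had a median level of 118 CPM and a median rise of 13.0%, 16 of them rose by more than 1.5-fold and 9 by more than 2-fold. The falls were larger and in scarcer genes: the 378 lower genes had a median level of 7.86 CPM and a median fall of 35.3%, and 119 fell by more than 2-fold. The median log2 fold change of all genes was 0.0021. All 6 fracture mice lay above all 6 sham mice for 0.958% of genes and below them for 1.53%.

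These counts depended on the test, on the covariates and on which mice were in the fit. DESeq2 called 606 genes higher and 905 lower, and edgeR's quasi-likelihood test called 25 and 93 with a replicate block, 28 and 72 with the skeletal muscle level as a covariate and 60 and 162 with the erythroid level. Leaving out 1 mouse at a time gave 68 (without Fracture F2) to 292 (without Sham M1) higher and 145 (without Fracture F2) to 463 (without Sham F3) lower genes. When the mean log2 level of the placenta genes was a covariate beside sex, edgeR's quasi-likelihood test called 0 genes higher and 1 lower (*mt-Rnr1*), and 1285 genes had an unadjusted p-value under 0.05. All 603 genes kept their direction, but they had been called in the same mice, so this is not independent evidence. Since the placental level itself nearly separated the groups, surgery and placental level cannot be told apart in such a fit. Both F3 mice were in the fit that made the calls, so their ratios are not independent of the calls. The 119 genes with falls over 2-fold had a median log2 ratio of -0.18 in these F3 mice against a median log2 fold change of -1.55 in all mice, and the other 259 had -0.28 against -0.47. That split used the size of the same falls, so these medians carry no test. The F3 ratio was negative for 329 of the 378 lower genes and positive for 223 of the 225 higher genes. Among all genes it was negative for 49.5%.

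**Figure D2:**
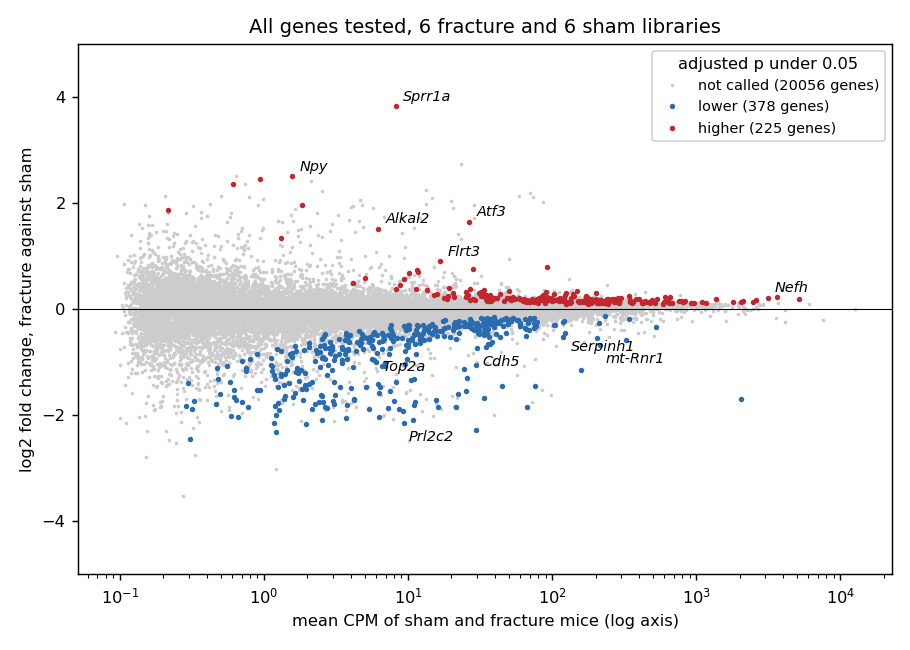
Log2 fold change of fracture against sham for each of the 20659 genes tested, against mean CPM (log axis), with the 225 higher genes in red and the 378 lower genes in blue. Higher genes are mainly abundant and moved little apart from a few such as *Sprr1a* at 3.83 and *Npy* at 2.51, and many of the lower genes are scarce and moved by more than 1 log2 unit.

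Of 34 tested axon injury and growth effectors, 10 rose, 1 fell and 23 did not pass the test, against the 1.09% and 1.83% of all genes, with a median log2 fold change of 0.19 in the list and 0.0021 in all genes. The risers were *Alkal2*, *Flrt3*, *Tubb3*, *Anxa2*, *Nptx2*, *Tubb6*, *Gadd45a*, *Sprr1a*, *Itga7* and *Ecel1*, and *Fgf2*, a growth factor, was the 1 that fell (log2 fold change -0.28 ± 0.069, here and below with the standard error of the fit, adjusted p = 0.0437). Among the smaller rises, *Tubb6*, a tubulin of growing axons, went from 22.2, 23.1 and 24.9 CPM to 25.9, 29.0 and 39.2 CPM with no overlap (0.38 ± 0.077, adjusted p = 0.0227), *Nptx2*, a secreted pentraxin of synapses, rose by 0.31, *Itga7*, a laminin-binding integrin chain, by 0.29, and *Anxa2*, a calcium-dependent membrane-binding protein, by 0.12. The list was chosen with earlier results of these data known, so its direction is not independent evidence.

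*Alkal2* (chr12:30884322-30893854), a secreted ligand of the receptor tyrosine kinase ALK, had the smallest p-value of all rises. It read 2.33, 3.03 and 4.93 CPM in sham mice and 7.71, 9.40 and 10.3 CPM in fracture mice, so that every fracture mouse lay above every sham mouse. Its log2 fold change was 1.51 ± 0.16 (adjusted p = 0.00197, edgeR's quasi-likelihood test), and the log2 ratio of the F3 mice was 1.41. *Flrt3* (chr2:140650914-140671469), a membrane protein of axon guidance and cell adhesion, read 8.79, 11.2 and 15.2 CPM in sham and 17.3, 20.3 and 30.9 CPM in fracture mice, again with no overlap. It rose by 0.91 ± 0.11 on the log2 scale (adjusted p = 0.00250), with an F3 ratio of 1.06.

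*Sprr1a* (chr3:92483952-92485895), a small proline-rich protein made by regenerating neurons, showed the highest fold change of all called genes. It was scarce in sham mice at 0.410, 0.868 and 1.78 CPM and read 3.17, 6.91 and 61.5 CPM in fracture mice, without overlap. The log2 fold change was 3.83 ± 0.81 (adjusted p = 0.0405), but 1 mouse, Fracture M2, stood at 61.5 CPM, and the others at 3.17 to 10.6 CPM. Without that mouse the value was 2.60 (adjusted p = 0.039). The call was lost in 9 of the 12 fits that left out 1 mouse, including each that left out a sham mouse, with log2 fold changes of 2.60 to 4.06 and adjusted p-values of up to 0.100 over the 12. *Gadd45a*, a stress-response gene induced by damage, rose from 16.9, 20.1 and 27.3 CPM to 28.2, 35.6 and 46.0 CPM with no overlap (log2 fold change 0.76 ± 0.15, adjusted p = 0.0283). *Ecel1*, a membrane endopeptidase of injured neurons, read 0.385, 0.568 and 1.36 CPM in sham and 1.34, 1.58 and 8.13 CPM in fracture mice and overlapped by 1 sham mouse (1.96 ± 0.46, adjusted p = 0.0445), and its call was lost in 10 of the 12 fits, with log2 fold changes of 1.40 (without Fracture M2) to 2.15 and adjusted p-values of up to 0.102.

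The 250 bases before the RefSeq start of *Sprr1a* and *Alkal2*, the riser with the highest fold change and the one with the smallest p-value, are shown because all fracture mice lay above all sham mice for both genes. They are given 5′ to 3′ on the strand of the gene as RefSeq lists them for GRCm38.p6, at chr3:92485882-92486131 (minus strand) and chr12:30884074-30884323 (plus strand), with matches to the AP-1 motif TGANTCA in capitals. The gene coordinates given above are those of the deposited table, whose starts lie within the last bases of these windows.
Sprr1a: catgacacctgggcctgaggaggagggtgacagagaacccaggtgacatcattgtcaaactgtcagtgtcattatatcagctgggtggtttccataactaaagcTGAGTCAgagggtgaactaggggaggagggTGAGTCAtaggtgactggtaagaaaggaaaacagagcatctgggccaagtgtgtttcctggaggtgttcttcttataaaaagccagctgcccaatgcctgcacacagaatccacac
Alkal2: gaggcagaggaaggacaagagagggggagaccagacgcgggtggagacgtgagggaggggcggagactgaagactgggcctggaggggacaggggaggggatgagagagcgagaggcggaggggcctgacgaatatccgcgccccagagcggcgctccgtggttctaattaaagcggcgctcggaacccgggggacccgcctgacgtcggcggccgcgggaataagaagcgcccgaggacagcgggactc
The *Sprr1a* window held 2 AP-1 matches, whose first bases lie at -146 and -116 from the RefSeq start, and neither window held the cAMP response element TGACGTCA or the E-box CACGTG on either strand. The window of *Flrt3*, searched in the same way but not printed, held 0 matches to each of these motifs. A match to TGANTCA was found in 7.81% of all 32851 promoters of 300 bases in the table, in 5.89% of the 17594 promoters of tested genes, in 4.02% of the 224 promoters of 159 higher genes and in 9.07% of the 353 promoters of 282 lower genes. The cAMP response element was found in 1.79%, 2.63%, 2.68% and 1.42%, and the E-box in 7.15%, 8.88%, 4.91% and 10.8% of these promoters, in the same order. The letters of no motif contain those of another, these shares were not tested, and a match is no evidence that a factor binds.

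Of 26 injury-response transcription factors, 2 rose and none fell at the threshold, where 1.09% of all genes were higher and 1.83% lower, 18 had a negative log2 fold change and the median of the list was -0.12. *Atf3* (chr1:191170296-191218039), an ATF/CREB-family factor that marks injured sensory neurons, rose from 11.2, 12.9 and 14.5 CPM in sham mice to 20.2, 39.0 and 72.6 CPM in fracture mice, and the groups did not overlap. Its log2 fold change was 1.65 ± 0.25 (adjusted p = 0.0141), 1.39 without Fracture M2 (adjusted p = 0.00846), and 1.62 between the F3 mice. *Sox11*, a factor of axon growth, read 9.27, 9.76 and 10.7 CPM and 10.6, 12.7 and 16.9 CPM with overlap by 1 fracture mouse and a log2 fold change of 0.39 ± 0.093 (adjusted p = 0.0425).

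Among 20 neuropeptide and granin genes, 3 rose (1.09% of all genes were higher) and none fell at the threshold, and the list's median log2 fold change was 0.25. *Npy*, neuropeptide Y, scarce in intact ganglia, read 0.261, 0.340 and 0.888 CPM in sham and 0.927, 1.74 and 8.59 CPM in fracture mice with no overlap (log2 fold change 2.51 ± 0.55, adjusted p = 0.0336). Fracture M2 again was highest, and without it the value was 1.70 (adjusted p = 0.055). The call was lost in 9 of the 12 fits without 1 mouse, with adjusted p-values of up to 0.0856. *Adcyap1*, the precursor of PACAP, a peptide of nociceptors, was far more abundant and went from 50.5, 67.7 and 88.9 CPM to 89.8, 116 and 147 CPM with no overlap (0.78 ± 0.15, adjusted p = 0.0283). *Chgb*, a granin of dense-core vesicles, read 96.9, 107 and 115 CPM and 114, 121 and 130.2 CPM, with overlap by 1 mouse of each group, and rose by 0.20 ± 0.045 (adjusted p = 0.0304). *Gal*, the precursor of galanin and a gene chosen after its values were seen, read 8.11, 10.7 and 18.2 CPM in sham and 12.1, 19.2 and 107 CPM in fracture mice and did not pass the test (log2 fold change 1.41 ± 0.55, adjusted p = 0.215). In the 12 fits that each left out 1 mouse, *Alkal2*, *Flrt3* and *Atf3* lost the call in 0, *Gadd45a* in 5 and *Adcyap1* in 6.

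**Figure D3:**
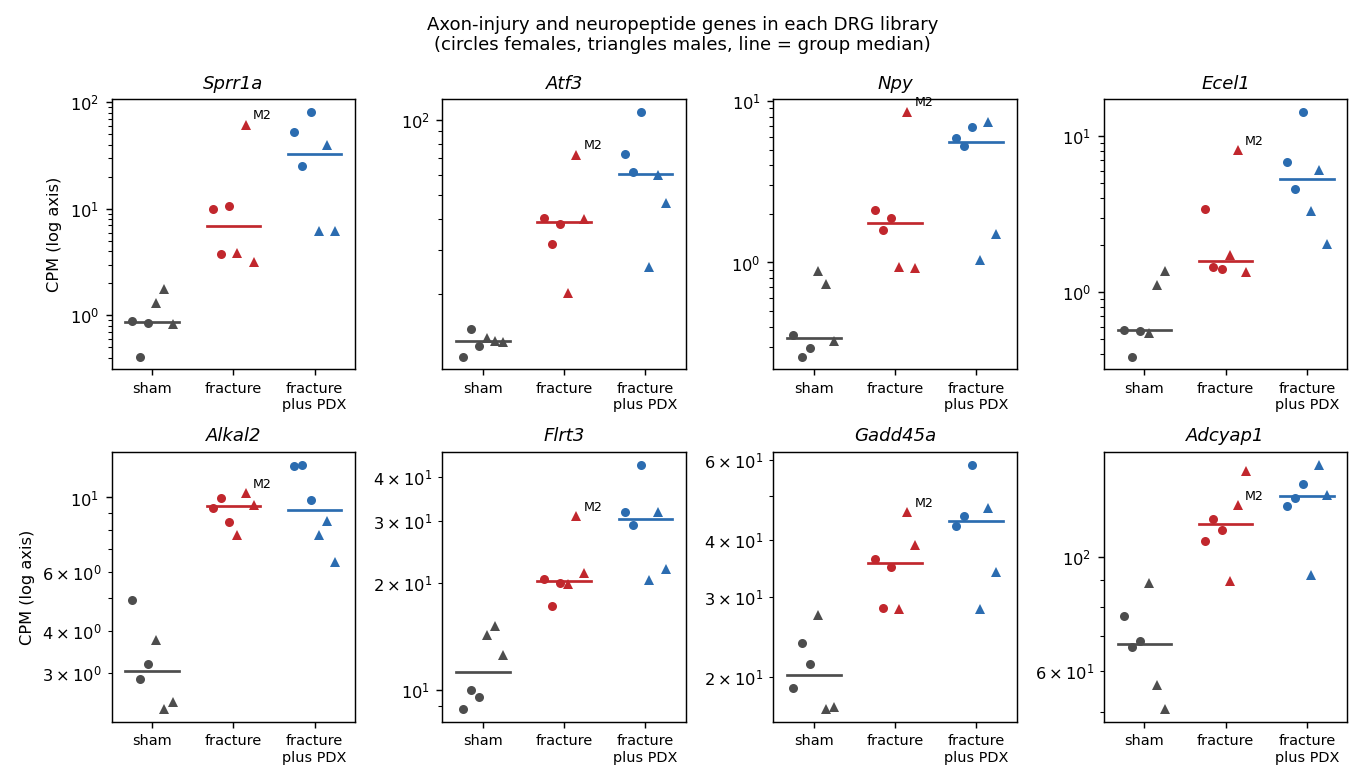
CPM (log axes) of 8 injury and neuropeptide genes in each library of sham, fracture and fracture plus PDX mice, with circles for females, triangles for males and lines for group medians. For 7 of the 8 genes all fracture mice lie above all sham mice, *Ecel1* overlaps by 1 sham mouse, and the labelled male M2 is the highest fracture mouse for *Sprr1a*, *Atf3*, *Npy*, *Ecel1*, *Alkal2*, *Flrt3* and *Gadd45a*.

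Of 17 pan-neuronal genes, 5 rose and 12 did not pass the test, where 1.09% of all genes were higher, and all 17 had a positive log2 fold change between 0.060 and 0.22, with a median of 0.12. *Nefh*, the neurofilament heavy chain of large neurons, read 2725, 2923 and 3066 CPM in sham and 3209.7, 3344 and 3547 CPM in fracture mice, without overlap (log2 fold change 0.22 ± 0.037, adjusted p = 0.0126). *Tubb3*, a neuronal tubulin, went from 2339.8, 2464 and 2594 CPM to 2656, 2762 and 2829 CPM and also did not overlap (0.17 ± 0.029, adjusted p = 0.0126). The 3 others were *Stmn2*, a microtubule regulator of growing axons (0.18), *Nefm*, the neurofilament medium chain (0.19), and *Uchl1*, a neuronal ubiquitin hydrolase (0.14). In the F3 mice the log2 ratios of *Nefh*, *Nefm* and *Tubb3* were 0.080, 0.076 and 0.13, and the median of the list was 0.076, against 0.12 in all mice and 0.068 with the placental level as a covariate. In the latter fit *Nefh* had 0.11 and *Tubb3* 0.15.

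Genes of the sensory neuron classes held 2 calls, both higher, where 1.09% of all genes were higher. Of 15 peptidergic nociceptor genes only *Adcyap1* rose, of 19 nonpeptidergic and itch genes only *Ret* rose, and of 16 mechanoreceptor and proprioceptor genes none passed the test. The median log2 fold changes of the 3 lists were 0.058, 0.13 and 0.12, and -0.010, 0.088 and 0.0068 with the placental level as a covariate. *Piezo2*, the touch channel, read 325, 365 and 387 CPM in sham and 362, 385 and 452 CPM in fracture mice (log2 fold change 0.13 ± 0.053, adjusted p = 0.210).

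Ion channel genes that passed the test were 7 of 116 tested channel genes, and 6 of them rose, by under 0.3 on the log2 scale, and 1 fell, where 1.09% of all genes were higher and 1.83% lower. List medians were 0.11 for sodium, 0.064 for potassium and HCN, 0.12 for calcium and 0.064 for TRP, Piezo, purinergic and acid-sensing channels. The pan-neuronal list had 0.12. With the placental level as a covariate the channel medians were -0.0043, 0.010, 0.039 and 0.039. Whether channel genes rose beyond neuronal genes at large was not tested. *Asic3*, an acid-sensing channel of muscle afferents, went from 78.1, 95.0 and 109 CPM to 98.7, 114 and 128 CPM with overlap (0.28 ± 0.054, adjusted p = 0.0184). *Scn9a*, the sodium channel Nav1.7 of nociceptors, read 257, 268 and 277 and 268, 299 and 329 CPM (0.16 ± 0.040, adjusted p = 0.0451). The potassium channel genes *Kcnip2*, *Kcnt1* and *Kcnh1* rose by 0.23, 0.16 and 0.18, 3 of 49 in that list, and the calcium channel subunit gene *Cacna2d3* rose by 0.13, 1 of 21. *Piezo1*, a mechanically gated channel found mainly in nonneuronal cells, was the 1 channel gene that fell. It read 18.5, 19.7 and 21.1 CPM in sham and 12.8, 14.8 and 16.3 CPM in fracture mice, so the ranges did not meet, with a log2 fold change of -0.42 ± 0.053 (adjusted p = 0.00449) and an F3 ratio of -0.57. *Kcnk16*, a background potassium channel outside the lists and chosen after its values were seen, was scarce and read 0.0430, 0.200 and 0.351 CPM and 0.360, 0.834 and 2.42 CPM without overlap (2.36 ± 0.52, adjusted p = 0.0306).

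Of 27 genes of neurotrophic factors and their receptors, 2 receptor genes rose, where 1.09% of all genes were higher. The list's median log2 fold change was 0.057, and 0.035 with the placental level as a covariate. *Ret*, the signaling receptor of the GDNF family, read 726, 786 and 792 CPM in sham and 780.4, 854 and 903 CPM in fracture mice (0.13 ± 0.028, adjusted p = 0.0283). *Ngfr*, the p75 receptor of neurotrophins, made by neurons and Schwann cells, read 540.0, 564 and 606 and 601, 613 and 663 CPM (0.14 ± 0.034, adjusted p = 0.0413). Both genes overlapped between the groups.

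Immediate early genes are those that cells switch on within minutes of a stimulus. Of 25 tested, 4 fell, 21 did not pass the test and none rose at the threshold, where 1.83% of all genes were lower, 24 had a negative log2 fold change, and the median was -0.26. *Zfp36*, which speeds the decay of cytokine mRNA, fell from 11.7, 13.3 and 16.2 CPM to 7.82, 8.70 and 9.88 CPM with no overlap (log2 fold change -0.66 ± 0.092, adjusted p = 0.00607). *Btg2*, an antiproliferative gene, read 11.7, 14.9 and 17.1 CPM and 8.53, 9.72 and 11.4 CPM, also apart (-0.54 ± 0.1, adjusted p = 0.0162). The others were *Klf2*, a factor of quiescent endothelium (-0.71 ± 0.16), and *Ccn1*, a matricellular protein (-0.37 ± 0.084). The F3 ratios of the 4 genes were -0.24, -0.29, -0.34 and -0.68.

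Of 95 genes in the 4 glial lists, 5 rose (5.26%, where 1.09% of all genes were higher) and none fell at the threshold. Of 24 satellite glia genes, 2 rose, and the list's median log2 fold change was 0.052. *Ednrb*, the endothelin receptor B of satellite glia, read 97.2, 135 and 150.5 CPM in sham and 142, 167 and 188 CPM in fracture mice with a small overlap (0.35 ± 0.055, adjusted p = 0.00978). *Ttyh1*, a chloride channel family member of glia, went from 108, 129 and 134 CPM to 139, 153 and 172 CPM with no overlap (0.29 ± 0.059, adjusted p = 0.0237). Of 22 genes of nonmyelinating and repair Schwann cells, *Ngfr*, *L1cam* and *Ncam1* rose, by 0.14, 0.13 and 0.16. The last pair encode cell adhesion molecules that neurons express as well.

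None of the 25 myelin genes passed the test, although 23 of them had a negative log2 fold change and the median was -0.18. *Mbp*, myelin basic protein, read 2878, 4389 and 5883 CPM in sham and 3010.3, 3748 and 4656 CPM in fracture mice, and *Pmp22*, a membrane protein of compact myelin, read 2137, 3774 and 5163 and 2713, 3354 and 4086 CPM, with wide overlap. The median of the list was 0.091 in females and -0.54 in males, and no myelin gene passed the test of the sex by fracture interaction. None of the 24 genes of cholesterol synthesis, which feeds myelin, passed the test, with a median of -0.0080.

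Of 67 genes in the 3 vascular lists, 7 fell (10.4%, where 1.83% of all genes were lower) and none rose at the threshold. Of 26 endothelial genes, 5 fell and none rose at the threshold, 20 had a negative log2 fold change, and the median was -0.15. *Cdh5*, the VE-cadherin of endothelial junctions, read 26.6, 38.4 and 43.5 CPM in sham and 19.3, 22.5 and 25.6 CPM in fracture mice with no overlap (-0.73 ± 0.12, adjusted p = 0.0117). *Flt1*, a VEGF receptor, read 29.8, 44.2 and 51.4 CPM and 21.0, 26.1 and 29.8 CPM, with overlap by 1 mouse of each group (-0.71 ± 0.13, adjusted p = 0.0171). In the F3 mice the log2 ratio was -0.14 for *Cdh5* and -0.022 for *Flt1*, and with the placental level as a covariate the values were -0.31 and -0.21. *Flt1* is also made by trophoblast cells of the placenta, whose part in these falls was not tested.

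The other endothelial genes that fell were *Slco2a1*, a prostaglandin transporter (-0.33 ± 0.069, adjusted p = 0.0255), *Tjp1*, a tight junction protein (-0.26 ± 0.058, adjusted p = 0.0319), and *Slc2a1*, a glucose transporter (-0.24 ± 0.060, adjusted p = 0.0492), with F3 ratios of -0.20, -0.16 and 0.035. Of 25 genes of vascular activation and angiogenesis, 2 fell, where 1.83% of all genes were lower. Among them was *Icam1*, a leukocyte adhesion molecule that went from 4.38, 5.43 and 5.76 CPM to 3.53, 3.94 and 4.30 CPM with no overlap (-0.42 ± 0.1, adjusted p = 0.0406). None of the 16 pericyte and smooth muscle genes passed the test, with a median of -0.13.

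Of 205 genes in the 7 matrix lists, 19 fell and 2 rose, or 9.27% and 0.976% where all genes had 1.83% and 1.09%, with a median log2 fold change of -0.17. Genes of the meninges and nerve sheath, tissues rich in fibroblasts and matrix, had 15 of 16 negative values and a median of -0.39 (-0.053 in females and -0.68 in males), with none called, and the median was 0.12 with the placental level as a covariate and 0.56 in the F3 mice. Their part in the falls of matrix genes was not tested. Among the 19 genes of the matrix lists that fell was *Serpinh1* (chr7:99345376-99353239), which encodes HSP47, the chaperone that folds collagen in the endoplasmic reticulum. It read 135, 139.9 and 154 CPM in sham and 97.2, 101 and 120.0 CPM in fracture mice, with a gap between the groups (-0.45 ± 0.050, adjusted p = 0.00210), and its F3 ratio was -0.43. Of 27 genes of collagen folding and cross-linking, 3 more fell: *P4ha1*, a prolyl 4-hydroxylase (-0.35 ± 0.056), *Plod2*, a lysyl hydroxylase (-0.36 ± 0.081), and *P3h2*, a prolyl 3-hydroxylase (-0.49 ± 0.11). *Loxl4*, a lysyl oxidase that cross-links collagen, rose from 3.43, 4.02 and 4.46 CPM to 4.49, 6.24 and 7.44 CPM with no overlap (0.59 ± 0.13, adjusted p = 0.0313).

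Of 31 fibril-forming and associated collagen genes, 1 fell, where 1.83% of all genes were lower, and the list's median was -0.11. It was *Col8a1*, a short-chain collagen of vessel walls, which went from 22.1, 23.8 and 32.9 CPM to 17.0, 20.5 and 22.7 CPM with overlap (-0.32 ± 0.076, adjusted p = 0.0418). Of 24 basement membrane genes, 22 had a negative log2 fold change, 2 fell, and the median was -0.19. *Lama5* (chr2:180176373-180225859), the laminin alpha 5 chain of mature vessels and nerves, read 34.4, 39.8 and 44.3 CPM in sham and 23.7, 28.3 and 31.6 CPM in fracture mice with no overlap (-0.49 ± 0.056, adjusted p = 0.00250, F3 ratio -0.32). *Lama1*, the laminin alpha 1 chain, which is typical of embryonic basement membranes, read 3.23, 4.50 and 6.14 CPM and 1.76, 2.14 and 3.45 CPM (-1.01 ± 0.19, adjusted p = 0.0171), and in the F3 mice its ratio was 0.094, the opposite sign.

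Among 37 matricellular and proteoglycan genes, 5 fell, where 1.83% of all genes were lower, 31 had a negative log2 fold change and the median was -0.32. *Fn1*, fibronectin, read 193, 240.1 and 276 CPM in sham and 142, 173 and 182 CPM in fracture mice with no overlap (-0.54 ± 0.091, adjusted p = 0.0149), and its F3 ratio was -0.11. *Dcn*, decorin, a proteoglycan that binds collagen fibrils, went from 509.9, 578 and 671 CPM to 412, 462 and 511 CPM, with overlap by 1 mouse of each group (-0.33 ± 0.073, adjusted p = 0.0331, F3 ratio -0.35). *Prelp*, a proteoglycan that anchors basement membranes, fell by 0.43 ± 0.090 (adjusted p = 0.0268), *Fbn1*, fibrillin 1 of elastic microfibrils, fell by 0.28 ± 0.045 (adjusted p = 0.0111), and *Ccn1* is given above. *Emilin1*, an elastic fiber glycoprotein outside the lists, fell from 12.6, 14.6 and 17.3 CPM to 5.86, 8.55 and 10.2 CPM without overlap (-0.85 ± 0.12, adjusted p = 0.00708). *Tgm2*, the transglutaminase that cross-links matrix proteins, read 41.6, 44.7 and 53.8 CPM and 25.5, 29.7 and 35.2 CPM, likewise apart (-0.63 ± 0.082, adjusted p = 0.00579, F3 ratio -0.30).

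Of 36 matrix proteases and inhibitors, 3 fell and 1 rose, where 1.83% of all genes were lower and 1.09% higher, and 2 of the falls are given here. *A2m*, the broad protease inhibitor alpha-2-macroglobulin, read 42.7, 51.1 and 59.0 CPM in sham and 34.1, 34.9 and 38.4 CPM in fracture mice with no overlap (-0.53 ± 0.062, adjusted p = 0.00250, F3 ratio -0.32). *Mmp2*, gelatinase A, fell by 0.32 ± 0.069 (adjusted p = 0.0295). *Htra1*, a secreted serine protease, rose by 0.14 ± 0.033 (adjusted p = 0.0398). In the fibroblast list, *Igfbp6*, which binds insulin-like growth factors, fell (-0.50 ± 0.11, adjusted p = 0.0333), 1 of 21 genes with a median of -0.24. Of 32 genes of TGF-beta and activin signaling, 3 fell: *Fstl3*, a secreted activin antagonist, from 18.1, 20.7 and 24.1 CPM to 11.6, 15.1 and 17.1 CPM without overlap (-0.51 ± 0.093, adjusted p = 0.0162), *Tgfbi*, a matrix protein induced by TGF-beta (-0.36 ± 0.069), and the ligand *Tgfb3* (-0.18 ± 0.043). *Fstl3* had an F3 ratio of -0.083 and a value of -0.14 with the placental level as a covariate.

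**Figure D4:**
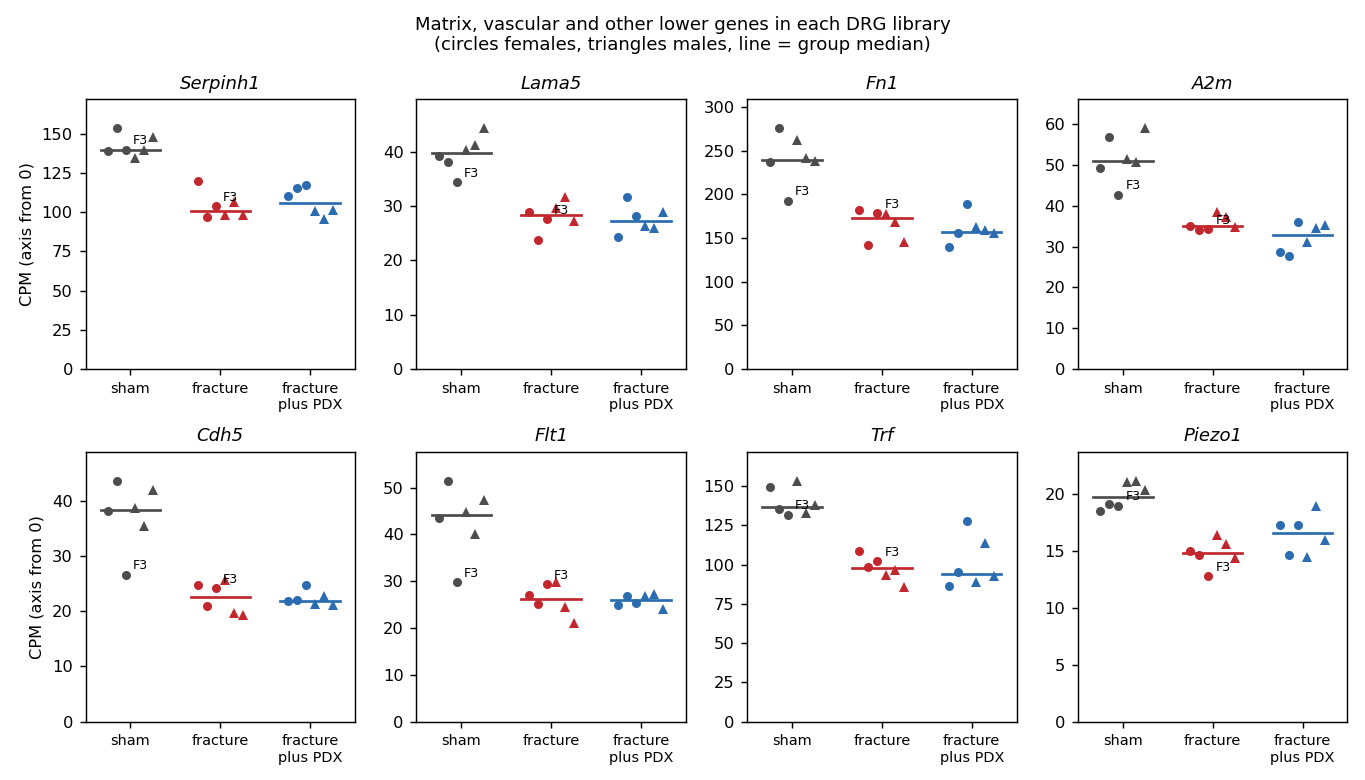
CPM (axes from 0) of 8 genes that fell in each library of sham, fracture and fracture plus PDX mice, with circles for females, triangles for males, lines for group medians and the F3 mice labelled. The log2 ratios of the F3 mice are -0.43, -0.32, -0.32, -0.36 and -0.57 for *Serpinh1*, *Lama5*, *A2m*, *Trf* and *Piezo1*. They are -0.11, -0.14 and -0.022 for *Fn1*, *Cdh5* and *Flt1*. Except for *Flt1* the groups do not overlap, so the signs of the other ratios were fixed in advance.

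Of 182 genes in 8 immune lists, 8 fell and 1 rose, or 4.40% and 0.549% where all genes had 1.83% and 1.09%, with a median log2 fold change of -0.25. All 25 macrophage genes had a negative log2 fold change, with a median of -0.25, and 3 fell. *Csf1r*, the receptor that macrophages need to survive, read 34.5, 36.1 and 38.6 CPM in sham and 22.0, 26.3 and 30.3 CPM in fracture mice with no overlap (-0.47 ± 0.071, adjusted p = 0.00733, F3 ratio -0.28). *Adgre1*, which encodes the macrophage antigen F4/80, read 5.17, 6.42 and 6.92 and 3.52, 4.15 and 4.75 CPM without overlap (-0.56 ± 0.098, adjusted p = 0.0139), and *Gpnmb*, a gene of lipid-laden macrophages, fell by 0.48 ± 0.098 (adjusted p = 0.0239).

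Neutrophil genes had a median of -0.81, with all 18 negative. Only *Cxcr2*, a chemokine receptor, passed the test, where 1.83% of all genes were lower. It read 2.66, 3.33 and 5.75 CPM in sham and 1.35, 1.49 and 2.56 CPM in fracture mice (-1.25 ± 0.24, adjusted p = 0.0171). Of 13 B cell genes, *Rag1*, a recombinase of developing lymphocytes, fell from 0.472, 0.824 and 1.57 CPM to 0.142, 0.324 and 0.362 CPM (-1.65 ± 0.34, adjusted p = 0.0251). Of 50 cytokine, chemokine and receptor genes, *Cxcr2*, the eosinophil attractant *Ccl11* (-0.47 ± 0.11) and the scavenging receptor *Ackr3* (-0.57 ± 0.085) fell. *Csf1*, a ligand of CSF1R made by injured neurons and named after its values were seen, read 31.5, 36.6 and 38.4 CPM in sham and 30.6, 34.2 and 57.2 CPM in fracture mice, with Fracture M2 far above the rest (0.056 ± 0.12, adjusted p = 0.860). *Clu*, clusterin, an extracellular chaperone that restrains complement, was the 1 immune list gene that rose, from 439, 466 and 475 CPM to 494, 517 and 541 CPM without overlap (0.17 ± 0.025, adjusted p = 0.00708). Among 39 interferon and antigen presentation genes, only *Isg20*, an exonuclease, fell (-0.88 ± 0.15, adjusted p = 0.0122), beside the 1.83% of all genes. None of the 11 T and NK cell or 8 mast cell genes passed the test.

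Of 360 genes in the 9 cell state lists, 28 fell (7.78%, where 1.83% of all genes were lower) and none rose at the threshold, and 13 of the falls were in the cell cycle list. Of 31 cell cycle genes, all 31 had a negative log2 fold change, 13 fell and the median was -0.56. The list summed to 174 to 237 CPM in sham and 142 to 159 CPM in fracture mice. Markers of blood cells ran the same way, with medians of -0.85 in the erythroid list (13 of 13 negative), -0.81 in the neutrophil list and -0.90 in the B cell list, and Sham F1 had the highest sum of the sham mice for both cell cycle genes and B cell genes (60.6 CPM). Their part in the falls of cell cycle genes was not tested. *Top2a*, the topoisomerase of dividing cells, read 6.63, 7.48 and 9.23 CPM in sham and 3.78, 4.23 and 5.04 CPM in fracture mice with no overlap (-0.83 ± 0.11, adjusted p = 0.00575, F3 ratio -0.86), and *Mki67*, the proliferation antigen Ki-67, read 7.97, 12.1 and 17.6 and 5.52, 6.81 and 7.26 CPM (-0.94 ± 0.17, adjusted p = 0.0165, F3 ratio -0.81). *Bub1b*, *Rrm2*, *Tpx2* and *Cdc20*, genes of mitosis and nucleotide supply, fell by 1.14, 1.08, 0.61 and 0.84 on the log2 scale. *Uhrf1*, which keeps DNA methylation through division, fell from 4.21, 5.86 and 6.58 CPM to 2.07, 2.73 and 3.32 CPM (-1.10 ± 0.15, adjusted p = 0.00602).

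Of 23 genes of iron handling and the acute phase, 4 fell, where 1.83% of all genes were lower. *Trf* (chr9:103204001-103230444), transferrin, the iron carrier, went from 132, 137 and 153 CPM to 86.1, 97.6 and 109 CPM with no overlap (-0.52 ± 0.053, adjusted p = 0.00149, F3 ratio -0.36). *Slc40a1*, the iron exporter ferroportin, fell by 0.59 ± 0.12 (adjusted p = 0.0207), *Hmox1*, heme oxygenase 1, fell by 0.45 ± 0.079 (adjusted p = 0.0140), and *A2m* is given above. Of 21 circadian clock genes, *Nr1d1*, the repressor REV-ERBα, fell from 38.1, 42.9 and 55.0 CPM to 24.9, 27.2 and 33.7 CPM (-0.67 ± 0.082, adjusted p = 0.00449) and *Dbp*, a clock output factor, from 34.8, 43.4 and 49.1 CPM to 25.4, 29.0 and 34.5 CPM (-0.53 ± 0.081, adjusted p = 0.00859). The clock time at which tissue was taken is not given for either group. Of 24 glucocorticoid-responsive genes only the receptor *Nr3c1* fell (-0.17 ± 0.035, adjusted p = 0.0225).

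Of 33 heat shock and endoplasmic reticulum stress genes, 6 fell. *Hspa1a*, inducible HSP70, ranged widely in sham mice at 21.6, 33.5 and 69.8 CPM and narrowly in fracture mice at 17.6, 18.7 and 20.2 CPM (-1.05 ± 0.23, adjusted p = 0.0451), and reads of its near-identical copy may be split between the genes. The others were the chaperones *Hsph1* (-0.27), *Hsp90b1* (-0.18) and *Pdia4* (-0.20) and the stress-induced *Herpud1* (-0.26) and *Creld2* (-0.33). Of 100 cytosolic ribosomal protein genes 2 fell, a share near the 1.83% of all genes, *Rps18* (-0.57) and *Rps19* (-0.17), values that processed pseudogenes make uncertain, and none of 85 nuclear genes of oxidative phosphorylation, 13 mitochondrially encoded protein genes or 32 HOX genes passed the test.

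**Figure D5:**
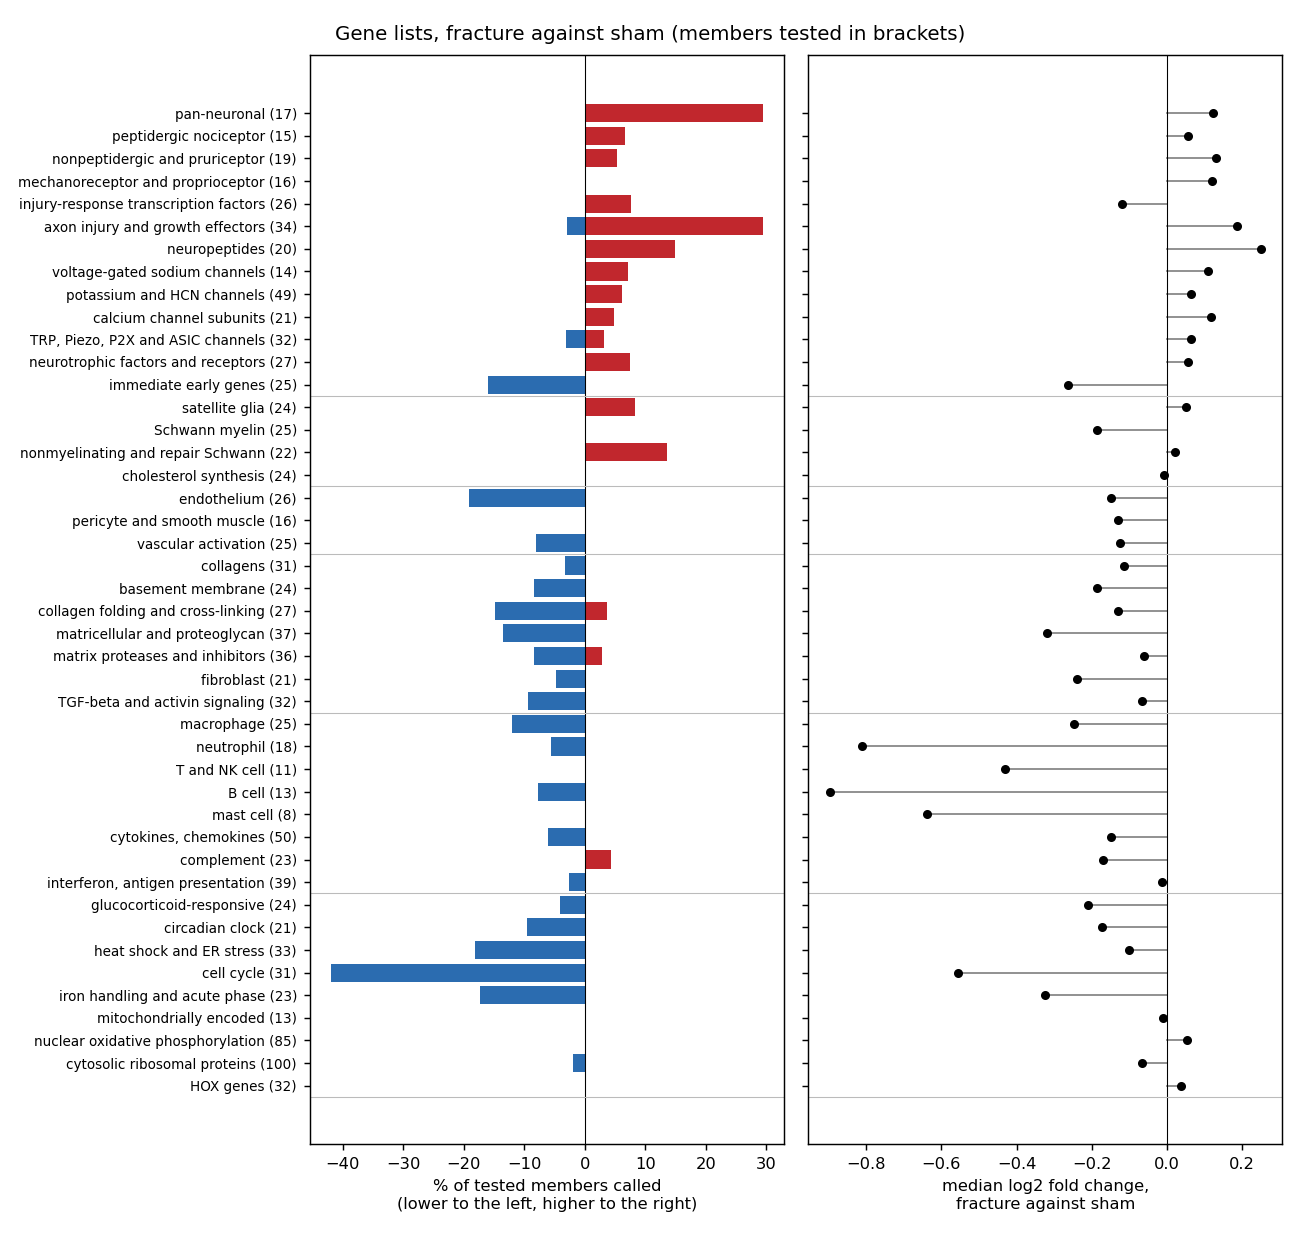
Share of tested members called higher (red, right) or lower (blue, left) and median log2 fold change of each gene list, grouped from neuronal lists at the top through glial, vascular, matrix and immune lists to cell state lists at the bottom, with the number of tested members in brackets. The highest shares of rises are 10 of 34 axon injury effectors and 5 of 17 pan-neuronal genes, and the highest share of falls is 13 of 31 cell cycle genes. Collagen folding, protease and complement lists hold 1 rise each, and immediate early genes, drawn with the neuronal lists, hold 4 falls.

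The smallest p-value of all belonged to a ribosomal RNA. *mt-Rnr1*, the mitochondrial 12S rRNA, read 247, 264 and 297 CPM in sham and 154, 163 and 186 CPM in fracture mice with no overlap (-0.69 ± 0.048, adjusted p = 3.16e-05, F3 ratio -0.81). Ribosomal RNA genes named after their values were seen moved the same way: *mt-Rnr2*, the mitochondrial 16S rRNA, fell by 0.59 ± 0.080 (adjusted p = 0.00733), and *CT010467*, annotated as an rRNA gene on chromosome 17, went from 1733, 2458 and 5258 CPM to 699, 921 and 1451 CPM (-1.69 ± 0.33, adjusted p = 0.0319). A second gene that carries the symbol *CT010467* overlaps it on the opposite strand and did not pass the test (-0.27 ± 0.16, adjusted p = 0.414). The libraries were selected for poly(A) RNA, and whether the amount of ribosomal RNA in a library has a part in other falls was not tested.

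The other genes with the smallest p-values belonged to no list. The rises, given as log2 fold changes, were *Gars*, glycyl-tRNA synthetase (0.16), the membrane skeleton gene *Add2* (0.20), the laminin receptor *Bcam* (0.22), the kinase *Camk2g* (0.19), the proton pump subunit *Atp6v1h* (0.14), the Notch effector *Hey2* (0.21), the R-spondin receptor *Lgr5* (0.39), the adhesion molecule *Amigo2* (0.31), *Parp8* (0.26), *Rasl10b* (0.19), *Disp2* (0.18), *Anks1b* (0.20), *Ssx2ip* (0.18) and *Abr* (0.19). *Lgr5* read 13.3, 16.9 and 19.1 CPM in sham and 20.6, 21.3 and 23.4 CPM in fracture mice, the widest change among them. The falls were *Rab43* (-0.33), the polarity gene *Llgl2* (-0.85), the chromatin protein *Hmgn1* (-0.27), the filamin-binding *Fblim1* (-0.97), *Fndc3b* (-0.39), *Nup62cl* (-1.69), *Arhgef5* (-0.70) and the transcriptional repressor *Hic2* (-0.94). *Nup62cl* had a value of -0.77 with the placental level as a covariate and -0.50 between the F3 mice.

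The effect of fracture was not shown to differ between the sexes. EdgeR's test of the sex by fracture interaction called 0 genes at an adjusted p-value under 0.05, with 1488 genes at an unadjusted p-value under 0.05 and a lowest adjusted p of 0.346, and DESeq2 called 65. The 5 genes with the smallest p-values were *Foxi2*, *Apobec2*, *Snrnp48*, *Cmtm6* and *C78859*. Within a sex, edgeR's quasi-likelihood test on 3 against 3 mice called 7 genes higher and 0 lower in females (2333 at an unadjusted p-value under 0.05) and 6 higher and 7 lower in males. *Atf3* rose by 1.53 in females and 1.76 in males, *Alkal2* by 1.34 and 1.69, and *Serpinh1* had -0.43 and -0.48, the same direction in both sexes.

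The 6 fracture mice given PDX are set beside these values, without a test of the difference, because they share the sham mice of the comparison. For *Sprr1a* they read 6.14, 32.7 and 81.8 CPM, with a log2 fold change against sham of 4.93 ± 0.78 where fracture with vehicle had 3.83. *Atf3* read 25.7, 60.8 and 108 CPM (2.21 ± 0.26 beside 1.65) and *Alkal2* 6.40, 9.15 and 12.5 CPM (1.54 ± 0.16 beside 1.51). Among the falls, *Serpinh1* read 95.8, 106 and 117 CPM (-0.42 ± 0.042 beside -0.45), *Cdh5* 21.2, 21.9 and 24.8 CPM (-0.74 ± 0.099 beside -0.73) and *Trf* 86.2, 94.3 and 128 CPM (-0.47 ± 0.096 beside -0.52). The placenta genes summed to 43.4 to 216 CPM in these mice. Against sham, their median log2 fold change was 0.25 for neutrophil genes, -0.050 for macrophage genes and -0.27 for cell cycle genes. Fracture mice with vehicle had -0.81, -0.25 and -0.56. Endothelial genes had a median of -0.15 in both.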

How the data were processed

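Poly(A)-selected, strand-specific libraries from L3–L5 DRG were sequenced. The submitters' processing notes name cutadapt 1.10, FastQC, HISAT2, StringTie and build mm10. The authors deposited 1 table of raw read counts per gene and FPKM values for 18 libraries. Its columns call the group without fracture Con, which was matched to the sham labels. Counts were filtered with filterByExpr (minimum count 10, minimum total 15), TMM-scaled and tested in edgeR 4.0.16 (R 4.3.3) by the quasi-likelihood test with sex as covariate, in 12 libraries, with Benjamini-Hochberg adjustment over 20659 genes. CPM were scaled over all 18 libraries. The script was tested on simulated data. Alternatives included DESeq2 1.42.0, limma 3.58.1 on log2(FPKM + 1), other filters, a replicate block, single sexes, each library left out, and, chosen after seeing the data, the placenta, erythroid and muscle levels as covariates.

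The members and gene lists were chosen with earlier results of these data known. Named genes were the 20 with the smallest p-values per direction, without predicted or symbol-less genes, up to 6 called members of each list (where none was called, up to 3 of the most abundant), markers of checked cell types, and the 5 with the smallest interaction p-values. *Sprr1a*, *Ecel1*, *Gadd45a*, *Itga7*, *Fgf2*, *Kcnk16*, *Gal*, *Csf1*, *mt-Rnr2*, *CT010467* and the gene families in the closing section were chosen after their values were seen. Some members of the lists are counted but not reported here by name.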

Additional observations from a re-analysis of the deposited data

Results flagged for a closer look

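Of 280 groups of 6 values examined, 22 held a mouse far from the other 5 (by Dixon's criterion on the gap to the nearest value), and chance flags about 1 in 20 groups. Of these, 8 lay in Fracture M2, which was highest of the fracture mice for *Sprr1a* (61.5 CPM, next 10.6), *Npy* (8.59, next 2.10), *Ecel1* (8.13, next 3.39), *Kcnk16* (2.42, next 0.954), *Flrt3* (30.9, next 21.4), *Tubb6* (39.2, next 29.7), *Gal* (107.1, next 27.8) and *Csf1* (57.2, next 35.4). *Sprr1a*, *Ecel1*, *Kcnk16*, *Gal* and *Csf1* were chosen after their values were seen, so the count for this mouse is not independent of that choice.

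In sham mice, F3 was lowest for *Ncam1* (102.7 CPM), *Llgl2* (3.40 CPM), *Nup62cl* (3.52 CPM) and *Hic2* (5.52 CPM), and F2 was highest for *Col8a1* (32.9 CPM), *Ackr3* (18.9 CPM) and the skeletal muscle sum (1133 CPM). Sham F1 was highest for *Tpx2* (7.75 CPM), and Sham M2 stood apart for *L1cam* (466.9 CPM). In fracture mice, F1 was highest for *Cxcr2* (2.56 CPM), *Hmox1* (35.7 CPM), *Foxi2* (1.47 CPM) and the neutrophil sum (232 CPM), and F3 for *Slc2a1* (83.3 CPM).

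Among the genes with the smallest interaction p-values, 3 had opposite directions in the sexes. The log2 fold change of males minus that of females was -3.02 for *Foxi2*, 0.56 for *Snrnp48* and 0.57 for *C78859*, and no adjusted p was under 0.05 in edgeR's test of the interaction.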

How the results depend on the processing

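The numbers of higher and lower genes, 225 and 378, became 606 and 905 with DESeq2, 116 higher genes with limma on FPKM, 7 and 0 in females, 6 and 7 in males, 0 and 1 with the placenta level as a covariate, 60 and 162 with the erythroid level, and 28 and 72 with the muscle level. Leaving out 1 mouse gave 68 to 292 higher genes (121 without Sham F1, 76 without Sham F2 or M2, 70 without Sham M3, 68 without Fracture F2, 117 without F3, 108 without M1 and 91 without M3) and 145 to 463 lower genes (251 without Sham F1, 215 without F2, 177 without M2, 175 without M3, 145 without Fracture F2, 227 without M2 and 196 without M3). The interaction count of 0 became 65 with DESeq2 and ranged from 0 to 1 when 1 mouse was left out, with 1 without Sham M1. With a replicate block for each sex and number the counts were 25 and 93. Same-numbered mice did not deviate together over all genes (correlations of -0.038 to 0.056 over 6 pairs). This cannot show whether a pairing acts on some of the genes, and the labels do not say whether the numbers pair the mice. Of 126 called genes selected for naming none changed sign under any alternative run. Every alternative reused mice in which these genes were called, so the kept signs are not independent evidence. Of the 126 genes, 126 kept their call with RLE size factors, 125 with DESeq2, 98 with limma, 50 with the replicate block, 62 with the erythroid level, 42 with the muscle level, 1 with the placenta level, 4 in females, 5 in males, and 71 (without Fracture F2) to 111 (without Sham F3 or M1) when 1 mouse was left out. The lowest count in a library was 21 for *Npy* and 3 for *Kcnk16*.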

Other observations

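Gene families were picked by symbol after their values were seen, and the prolactin, pregnancy-specific glycoprotein and *Rhox* families share members with the placenta list. Over all genes tested, 1.83% were lower and 1.09% higher. Of 19 placental prolactin genes, 9 fell, and they summed to 171.9 to 539.3 CPM in sham and 27.5 to 222.1 CPM in fracture mice. Of 12 pregnancy-specific glycoprotein genes 2 fell, of 8 *Serpinb9* family genes 7 fell, and of 4 *Rhox* genes 2 fell. The median log2 ratio of the F3 mice was 0.36, 0.85, 0.025 and 0.39 in these families, and members of such families share sequence, so the split of reads between them is uncertain. Of 10 desmosome and simple-epithelium keratin genes 8 fell, with a median log2 fold change of -1.52 and an F3 ratio of 0.041.

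All 3 embryonic globin genes fell, from 71.0 to 152.0 CPM summed in sham to 20.4 to 55.1 CPM in fracture mice, and their median F3 ratio was -1.08. In the protocadherin alpha cluster, whose members share exons, 1 of 12 genes rose, and the sum was 86.8 to 101.1 CPM in sham and 99.2 to 120.3 CPM in fracture mice.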
